A study of Mus musculus with 4 samples.

Results

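Crb1, Crb2, Mpp3, Mpp4, Mpp5 and Pard3, genes of apical cell polarity and of the outer limiting membrane of the retina, were followed across the cell classes of mouse retina. They were chosen by gene symbol and are 6 of the 31053 genes in the count matrices. Nuclear RNA was measured by 10x single-nucleus RNA sequencing in 4 libraries, made from 1 left eye of 1 animal per library. The animals of 2 libraries were 5 months old, with no genotype in the labels, and those of the other 2 were 2.5 months old and are labelled wild type. The labels name no treatment. Human retina stands in the title of the series, whereas every sample is labelled as mouse and carries mouse genes.

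The outer limiting membrane is a row of adherens junctions that ties the inner segments of rods and cones to the apical processes of Müller glia, the radial glia that span the retina. Just above these junctions lies the subapical region, where the Crumbs proteins, which cross the cell membrane, hold a protein complex by their short tails. Crb1 and Crb2 encode 2 Crumbs proteins. Mutations of the human gene CRB1 cause retinitis pigmentosa and Leber congenital amaurosis, and loss of Crumbs proteins in mouse retina breaks the limiting membrane. Mpp5, also known as Pals1, binds the Crumbs tail, and the related scaffolds Mpp3 and Mpp4 join the complex through it. Pard3 is the scaffold of the Par complex, which sets the apical border in epithelial cells.

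Crb1 and Mpp4 share a chromosome and the other 4 genes lie on one each. In GRCm38 (the assembly also called mm10), Crb1 (ENSMUSG00000063681) spans chr1:139197056-139377100 on the minus strand and Mpp4 (ENSMUSG00000079550) spans chr1:59120935-59163389 on the minus strand. Crb2 (ENSMUSG00000035403) spans chr2:37776249-37799103 on the plus strand, and Mpp3 (ENSMUSG00000052373) spans chr11:101999652-102028461 on the minus strand. Mpp5 (ENSMUSG00000021112) spans chr12:78748907-78840714 and Pard3 (ENSMUSG00000025812) spans chr8:127063893-127612286, both on the plus strand. The spans run from 22.9 kb for Crb2 to 548 kb for Pard3. Crb2 overlaps Dennd1a on the other strand. Mpp4 overlaps the antisense genes Gm29017 and G730003C15Rik, so that reads of these genes may be shared in ways the sources used here do not give.

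The 250 bases before a start are shown for the 2 genes whose level was highest in photoreceptors, Mpp4 with its 2 annotated starts and Crb2. The sequences are from RefSeq on GRCm38.p6, 5′ to 3′ on the gene's strand, and lie at chr1:59163390-59163639, chr1:59161637-59161886 and chr2:37775999-37776248. Capitals mark TAATCC or its reverse GGATTA, the core bound by the photoreceptor homeodomain factor Crx.
Mpp4 first start: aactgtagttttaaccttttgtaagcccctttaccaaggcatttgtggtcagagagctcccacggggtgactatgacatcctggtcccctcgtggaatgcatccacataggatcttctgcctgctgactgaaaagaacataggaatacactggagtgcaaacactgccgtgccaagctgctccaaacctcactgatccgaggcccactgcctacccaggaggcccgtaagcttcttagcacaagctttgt
Mpp4 second start: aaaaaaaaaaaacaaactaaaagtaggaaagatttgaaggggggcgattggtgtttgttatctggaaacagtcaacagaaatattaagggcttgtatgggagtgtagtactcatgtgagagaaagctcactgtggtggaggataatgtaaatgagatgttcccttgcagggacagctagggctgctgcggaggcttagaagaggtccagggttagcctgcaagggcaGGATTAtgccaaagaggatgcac
Crb2: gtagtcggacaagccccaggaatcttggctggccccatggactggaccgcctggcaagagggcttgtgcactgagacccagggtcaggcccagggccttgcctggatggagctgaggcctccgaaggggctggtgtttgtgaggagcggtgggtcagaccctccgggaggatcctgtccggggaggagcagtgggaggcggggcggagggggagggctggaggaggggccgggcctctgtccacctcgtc
The motif was searched on both strands. It was found 1 time, before the second Mpp4 start at position -23 from that start, which lies inside the gene. It was not found in the window before the first Mpp4 start or in the Crb2 window. Of 32851 promoters of the same length, 6.25% hold it, and a match is a description of the letters only.

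The libraries held 7537 and 9963 barcodes with 28042269 and 36320257 UMIs (unique molecular identifiers, each standing for 1 captured RNA molecule) at 5 months, and 7404 and 7422 barcodes with 19608067 and 28723257 UMIs at 2.5 months. Between any 2 libraries 0.0808% to 0.337% of barcodes were shared. After filtering, 30839 nuclei fell into 46 clusters, and 29797 nuclei were given 1 of 14 class names from marker genes. A class name means nuclei whose markers resemble that cell type. The 6 genes and their pathway partners were left out of the clustering, so that they did not shape the classes. Besides the cells of the retina, the libraries held ciliary epithelium, melanocytes, smooth muscle, fibroblasts and striated muscle, which are not retinal. The 12 classes tested had at least 20 nuclei in every library and held 282 nuclei (pigment epithelium) to 8941 nuclei (rods). Levels are CPM, the UMIs of a gene summed over a class in 1 library and scaled by the total of that class, and means are over the 4 libraries with their SD. A level is compared between classes for 1 gene, never between genes. The 9 rod markers summed to 18961 to 19863 CPM in rods. In Müller glia they summed to 2018 to 3768 CPM, so that rod RNA was present in nuclei of other classes in every library.

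Crb1 was highest in Müller glia and in the ciliary epithelium. Müller glia had 1418 and 1126 CPM at 5 months and 1229 and 1423 CPM at 2.5 months (mean 1299 ± 147, SD, n = 4), from 12938 UMIs. The ciliary epithelium, a pair of cell layers continuous with the retina and its pigment epithelium, had 852 and 1156 CPM at 5 months and 698 and 1289 CPM at 2.5 months (mean 999 ± 271, SD, n = 4). The ranges of these 2 classes overlapped. The ciliary class pools 2 clusters far apart in Crb1, given below, and neither of them overlapped with Müller glia. Its level in a library thus depends on the mix of the 2. The higher cluster held 69 of 160 and 179 of 274 ciliary nuclei at 5 months, and 75 of 235 and 76 of 112 at 2.5 months. Rods followed with 261 and 273 CPM at 5 months and 235 and 245 CPM at 2.5 months, and cones with 183 and 202 CPM at 5 months and 170 and 194 CPM at 2.5 months. From the ciliary epithelium down to rods, cones, fibroblasts (mean 80.2 CPM) and smooth muscle (42.1 CPM), each class lay apart from the next in all 4 libraries. Below smooth muscle, amacrine, bipolar, pigment epithelium, melanocyte, horizontal and ganglion nuclei ran from 38.9 to 15 CPM on average, with overlapping neighbours throughout.

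The pigment epithelium, the pigmented layer behind the photoreceptors, had 33 Crb1 UMIs in all. Its Crb1 level was 59.1 and 4.77 CPM at 5 months and 17.1 and 36.2 CPM at 2.5 months, with an SD of 23.7 CPM about a mean of 29.3 CPM. At least 1 Crb1 UMI was found in 93.7% ± 3.10 of Müller glia nuclei (SD, n = 4) and in 10.7% ± 3.74 of ganglion nuclei, although ganglion nuclei were deeper, with medians of 7710 to 12107 UMIs per library against 2517 to 4065 in Müller glia. Thinned to 1000 UMIs per nucleus, the shares were 68.2% ± 4.73 in Müller glia and 1.63% ± 0.628 in ganglion nuclei, with 14 and 3 nuclei left out as too shallow. The Crb1 difference between the classes was thus present at equal depth per nucleus. Rods also carried some Müller RNA: the 11 Müller markers summed to 937 to 1216 CPM in rods, and to 9263 to 12806 CPM in Müller glia. The part of free Müller RNA in the rod level of Crb1 was not tested.

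Crb1 differed between the clusters that make up the ciliary epithelium, as the left panel of the plot of levels by cluster shows. The cluster richer in RNA of 5 melanin genes (11974 to 15276 CPM summed over Tyr, Dct, Tyrp1, Pmel and Mlana), of 399 nuclei and led by Tbx20, Npsr1 and the melanin enzyme gene Tyr among others, had 1840 and 1733 CPM of Crb1 at 5 months and 2060 and 1959 CPM at 2.5 months. The cluster poorer in it (1232 to 1479 CPM, where the pigment epithelium had 1104 to 1708 CPM), of 382 nuclei and led by 9330185C12Rik, Mecom and Slc26a4 among others, had 183 and 140 CPM at 5 months and 234 and 282 CPM at 2.5 months. The melanin-rich cluster was thus far higher in all 4 libraries, and above Müller glia in each. The split of the ciliary class was made after its clusters were seen and was not tested. Pard3 did not show this split: its pooled level was 527 CPM in the melanin-rich cluster and 584 CPM in the other one. Among the unnamed clusters, cluster 44 (110 nuclei) had 528 and 303 CPM of Crb1 at 5 months and 179 and 264 CPM at 2.5 months. Cluster 22 (331 nuclei) had 257 and 14.3 CPM at 5 months and 275 and 783 CPM at 2.5 months, so that its libraries differed widely.

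**Figure D1:**
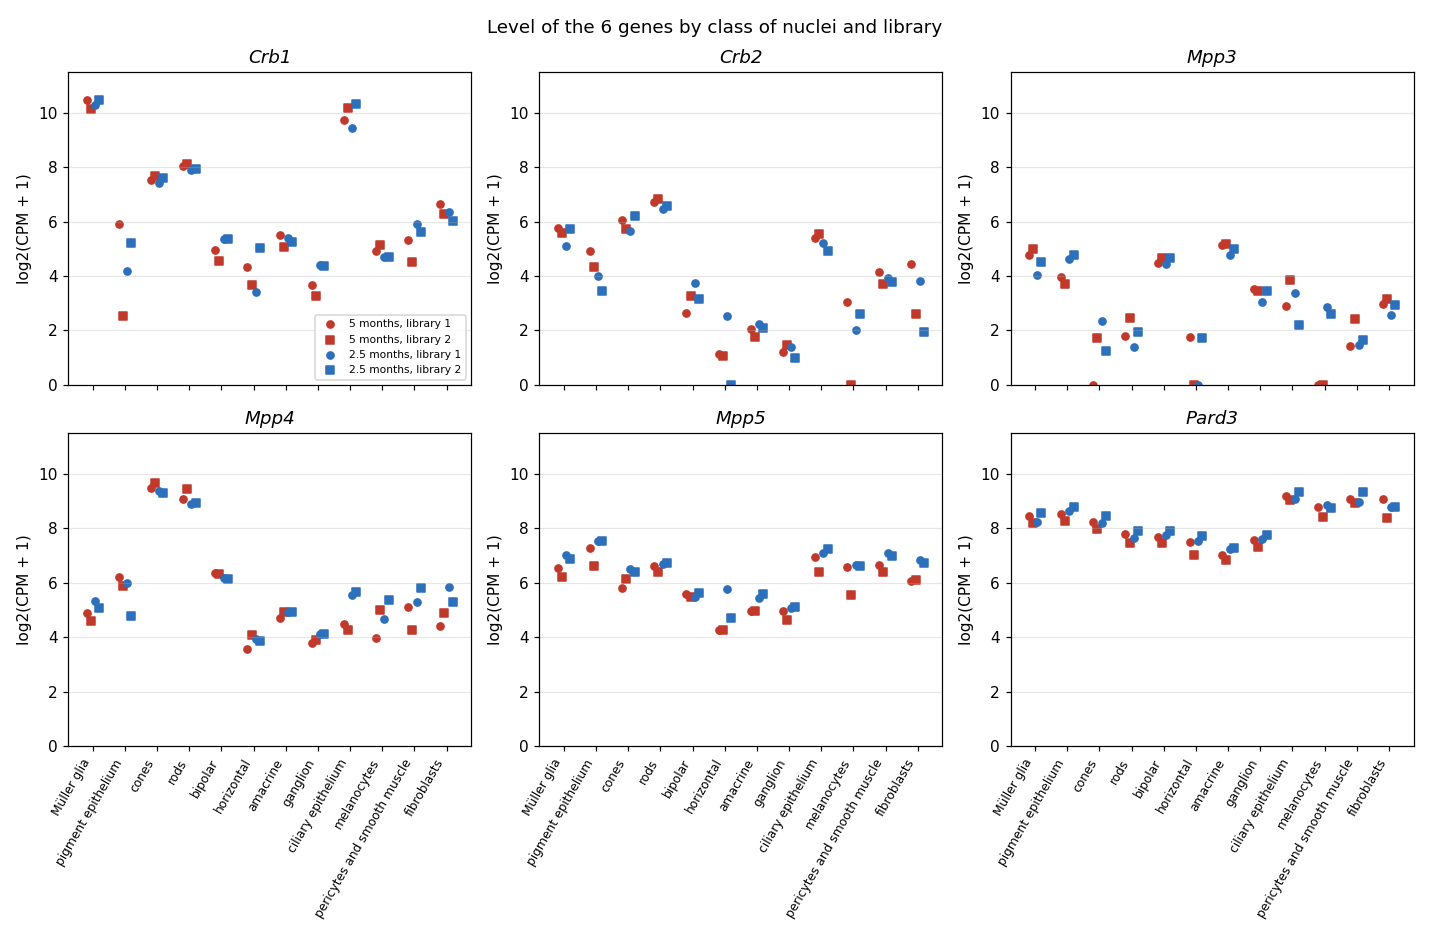
Level of each gene, as log2(CPM + 1), in the 12 tested classes, with 1 point per library (red, 5 months; blue, 2.5 months; circles and squares, libraries 1 and 2). Crb1 is highest in Müller glia and ciliary epithelium, Mpp4 in cones and rods, Crb2 in rods, and Pard3 in ciliary epithelium and smooth muscle.

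Crb2 was highest in rods. Rods had 105 and 111 CPM at 5 months and 88.1 and 94.3 CPM at 2.5 months (mean 99.7 ± 10.5, SD, n = 4). Cones had 65.3 and 51.7 CPM at 5 months and 49.3 and 72.7 CPM at 2.5 months, below rods in every library and with no overlap. Müller glia had 53.3 and 47.2 CPM at 5 months and 33.3 and 51.8 CPM at 2.5 months, and overlapped with cones. The ciliary epithelium had 38.1 ± 7.21 CPM (SD, n = 4) and overlapped with Müller glia. The pigment epithelium had 18.4 CPM, smooth muscle 13.9 CPM, fibroblasts 10.4 CPM and bipolar nuclei 8.55 CPM. Melanocytes, amacrine, horizontal and ganglion nuclei had 3.85 to 1.41 CPM on average.

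Crb2 outside photoreceptors was set beside the rod markers, which show how much rod RNA other nuclei held. The rod markers in Müller glia were at 15.7% of their summed rod level on average, and Crb2 there was at 46.5% of its rod level. The same comparison gave 14.9% for the markers and 38.1% for Crb2 in the ciliary epithelium, and 10.4% and 18.2% in the pigment epithelium. Crb2 was thus above the rod markers in these 3 classes. In the other 7 classes outside photoreceptors it was at or below them on average. In 5 of these no library was above the markers, and Crb2 there is read as background. Whether free Crb2 RNA scales with the markers was not tested. Smooth muscle was above them in 2 of 4 libraries and fibroblasts in 1 of 4.

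Mpp4 was highest in cones and rods. Cones had 706 and 806 CPM at 5 months and 661 and 630 CPM at 2.5 months (mean 701 ± 76.7, SD, n = 4). Rods had 541 and 704 CPM at 5 months and 478 and 491 CPM at 2.5 months (mean 554 ± 104, SD, n = 4). Cones were higher than rods in each library, and the ranges overlapped. Bipolar nuclei followed at 75.5 ± 6.29 CPM (SD, n = 4), apart from rods. The remaining 9 classes averaged 54.9 CPM (pigment epithelium) to 13.7 CPM (horizontal nuclei). At least 1 Mpp4 UMI was found in 77.9% ± 4.54 of cone nuclei, and in 47.9% ± 4.72 of them after thinning to 1000 UMIs. In rods the share was 48.3% ± 5.79, and 42.2% ± 6.05 after thinning with 2643 shallower nuclei left out. In Müller glia it was 8.95% ± 2.52 before and 3.19% ± 1.20 after thinning.

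As a share of the rod level, Mpp4 was on average at or below the rod markers in all 10 classes outside photoreceptors. In Müller glia Mpp4 was at 5.89% of its rod level and the markers at 15.7%. In 8 of the 10 classes, Müller glia among them, no library was above the markers. How much of the Mpp4 level there is free rod RNA was not tested, nor whether free Mpp4 RNA scales with the markers. In bipolar nuclei the values were 13.9% and 15.1%, with Mpp4 above the markers in 1 of 4 libraries. In the pigment epithelium they were 10.0% and 10.4%, with Mpp4 above the markers in 3 of 4 libraries and below them in the second 2.5-month library (5.35% and 9.24%). Within the bipolar class, 4 of 8 clusters were above the rod markers on average, and 3 (19, 20 and 37) were above them in every library. Cluster 19, of 379 nuclei and with Skor2 and Grm6 among its leading genes, had 138 and 147 CPM at 5 months and 111 and 136 CPM at 2.5 months. Its Mpp4 was at 24.3% of the rod level and its rod markers at 16.1%. The cluster of 788 nuclei, the most numerous in this class, had 6.76% and 14.9%.

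Mpp3 was highest on average in amacrine nuclei, followed by Müller glia, bipolar nuclei and the pigment epithelium. It was low in photoreceptors and in horizontal nuclei. Amacrine nuclei had 34.1 and 35.4 CPM at 5 months and 26.2 and 30.7 CPM at 2.5 months (mean 31.6 ± 4.10, SD, n = 4). Müller glia had 26.6 and 31.0 CPM at 5 months and 15.5 and 21.9 CPM at 2.5 months (mean 23.8 ± 6.63, SD, n = 4). Bipolar nuclei had 22.7 ± 1.96 CPM and the pigment epithelium 19.1 ± 6.86 CPM (SD, n = 4). Neighbours among these 4 classes overlapped. Ganglion nuclei had 9.38 CPM, the ciliary epithelium 8.23 CPM and fibroblasts 6.56 CPM. Rods had 2.44 and 4.48 CPM at 5 months and 1.61 and 2.80 CPM at 2.5 months, from 32 UMIs in 8941 nuclei. Melanocytes (2.81 CPM), smooth muscle (2.47 CPM), cones (1.96 CPM) and horizontal nuclei (1.17 CPM) overlapped with rods or with each other. An Mpp3 UMI was found in 12.9% ± 2.68 of amacrine nuclei and 0.361% ± 0.133 of rod nuclei. After thinning the shares were 3.28% ± 0.583 in amacrine nuclei and 0.282% ± 0.179 in rods.

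The amacrine cells, inhibitory interneurons of many kinds, were not uniform for Mpp3. Of the 14 amacrine clusters, cluster 11, led by Spink13 and Dab1, had 156 and 169 CPM at 5 months and 99.4 and 99.6 CPM at 2.5 months. Cluster 43, led by Slc17a8, the glutamate transporter gene that marks a known amacrine type, had a pooled level of 118 CPM in 122 nuclei. These 2 clusters were followed by cluster 35 with 63.0 CPM and cluster 10 with 58.1 CPM. The lowest, cluster 39 with Htr2c first among its genes, had 7.28 CPM. In the bipolar class the pooled Mpp3 level ran from 57.4 CPM in cluster 30 to 0.806 CPM in cluster 19, the bipolar cluster in which Mpp4 was highest.

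Pard3 in amacrine clusters ran in another order. It was highest in cluster 14, led by Esr1, with 357 and 318 CPM at 5 months and 355 and 368 CPM at 2.5 months. It was lowest in cluster 35, with a pooled level of 15.4 CPM over 197 nuclei and no library above 27.1 CPM. Cluster 11, highest for Mpp3, had a pooled Pard3 level of 18.8 CPM, and cluster 43 had 53.9 CPM. Over bipolar clusters Pard3 ran from 110 CPM in cluster 30 to 344 CPM in cluster 18, led by Grik1. By pooled level the 3 amacrine clusters highest for Mpp3 (11, 43 and 35) were the 3 lowest for Pard3, but the third places changed between libraries. At 5 months cluster 10 was above cluster 35 for Mpp3 (65.9 and 71.8 CPM, against 59.6 and 61.7 CPM). At 2.5 months cluster 43 was above cluster 21 for Pard3 (94.0 and 69.8 CPM, against 44.1 and 58.4 CPM). The plot of levels by cluster shows these values, which were not tested.

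**Figure D2:**
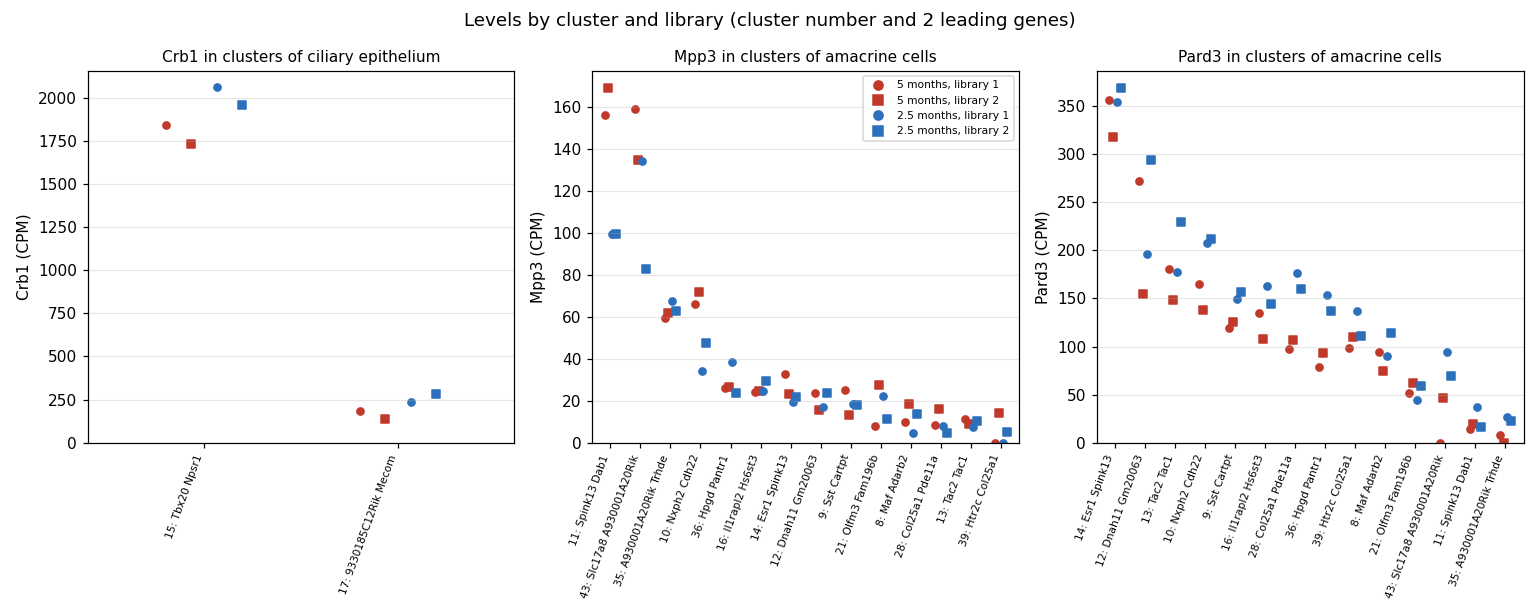
Crb1 in the 2 clusters of the ciliary epithelium (left), and Mpp3 (middle) and Pard3 (right) in the 14 amacrine clusters, as CPM with 1 point per library (red, 5 months; blue, 2.5 months). Axis labels give the cluster number and its 2 leading genes. Crb1 is 1733 to 2060 CPM in the first ciliary cluster and 140 to 282 CPM in the second, and clusters run from the highest to the lowest mean over libraries.

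Mpp5 was found in all 12 classes and was highest in the pigment epithelium. The pigment epithelium had 153 and 97.9 CPM at 5 months and 184 and 184 CPM at 2.5 months (mean 155 ± 40.6, SD, n = 4). Müller glia had 92.4 and 72.7 CPM at 5 months and 129 and 116 CPM at 2.5 months (mean 103 ± 24.9, SD, n = 4). Rods had 96.0 and 83.2 CPM at 5 months and 103 and 106 CPM at 2.5 months. Between the pigment epithelium and Müller glia lay the ciliary epithelium (122 ± 28.3 CPM) and smooth muscle (111 ± 23.7 CPM). Below rods came fibroblasts (88.2 CPM), melanocytes (83.8 CPM) and cones (74.1 CPM), and then bipolar (45.7 CPM), amacrine (37.7 CPM), ganglion (30.1 CPM) and horizontal nuclei (28.5 CPM). The only neighbours in this order whose ranges lay apart were cones and bipolar nuclei. A UMI of Mpp5 was found in 47.4% ± 13.3 of pigment epithelium nuclei, and in 13% ± 5.03 after thinning.

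Pard3 was on average higher in epithelial classes, smooth muscle, fibroblasts and melanocytes than in neurons. The ciliary epithelium had 582 and 522 CPM at 5 months and 533 and 637 CPM at 2.5 months (mean 569 ± 52.6, SD, n = 4), and smooth muscle had 542 ± 71.0 CPM. The smooth muscle class was a single cluster led by Myh11 and Acta2, with 4 of its 8 markers raised, and its 5 melanin genes summed to 8466 to 11999 CPM, against 18437 to 24819 CPM in melanocytes. The part of melanin-bearing cells in its levels was not tested. Fibroblasts had 439 CPM, melanocytes 419 CPM and the pigment epithelium 381 ± 55.1 CPM. Müller glia had 346 and 289 CPM at 5 months and 299 and 379 CPM at 2.5 months. These classes formed a gradual order in which no neighbours lay apart. Cones had 297 ± 40.7 CPM and lay apart from bipolar nuclei at 210 CPM. Rods had 223 and 175 CPM at 5 months and 198 and 240 CPM at 2.5 months. Ganglion (189 CPM), horizontal (175 CPM) and amacrine nuclei (136 ± 19.3 CPM) were lowest. In the ciliary epithelium 79.2% ± 6.55 of nuclei held a Pard3 UMI, and 43.8% ± 6.77 after thinning, against 39.0% ± 6.17 and 11.6% ± 1.64 of amacrine nuclei.

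The classes were next compared with each other by edgeR's quasi-likelihood test on UMIs summed per class and library, with the library as a block and p-values adjusted by Benjamini-Hochberg over all 14488 genes tested. The 4 libraries are each 1 animal, and the block takes out the spread that all classes of 1 library share. The p-values measure the spread left between class sums (33 residual degrees of freedom), not the spread between animals. Classes of 1 library come from 1 animal and are not independent. Each SE was derived as the size of the log2 fold change over the square root of the test's F statistic. The pairs tested were those of the outer limiting membrane and of the layer next to it. In Müller glia over rods all 6 genes were called, where 64.7% of all genes were called at the same adjusted p under 0.05 (31.7% higher and 33% lower), so the count of 6 is read against a high background.

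Crb1 was higher in Müller glia than in rods by 2.56 on the log2 scale (SE 0.180, adjusted p = 5.57e-18, edgeR), and higher in 4 of 4 libraries. Mpp3 was higher by 3.31 (SE 0.263, adjusted p = 5.07e-16, edgeR) and Pard3 by 0.87 (SE 0.0998, adjusted p = 8.69e-11, edgeR), each in 4 of 4 libraries. Crb2 was lower in Müller glia, with a log2 fold change of -0.87 (SE 0.159, adjusted p = 4.56e-06, edgeR), in all 4 libraries. Its call was lost with class sums thinned to equal depth (adjusted p = 0.0511). Mpp4 was lower at -4.00 (SE 0.150, adjusted p = 6.15e-29, edgeR), again in all 4 libraries. The 2 Crumbs genes thus ran in opposite directions between these classes. Mpp5 gave 0.28 (SE 0.0947, adjusted p = 0.00827, edgeR), but its CPM was higher in Müller glia in 2 of 4 libraries only. The Mpp5 call was lost without the library block (adjusted p = 0.261), without the second 2.5-month library (adjusted p = 0.0663) and with thinned class sums (adjusted p = 0.418).

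In Müller glia over cones 5 of the 6 genes were called, where 60.3% of all genes were. Crb1 was higher in Müller glia by 2.92 (SE 0.184, adjusted p = 1.01e-19, edgeR), Mpp3 by 3.92 and Mpp5 by 0.58 on the log2 scale, each in 4 of 4 libraries. Mpp4 was lower at -4.42 (SE 0.150, adjusted p = 1.13e-30, edgeR). Pard3 gave 0.29 (adjusted p = 0.00943, edgeR), and this call was lost without the library block (adjusted p = 0.137), with no filter on low counts (0.0610) and with thinned class sums (0.227). Crb2 had a log2 fold change of -0.21 (SE 0.168, adjusted p = 0.297, edgeR) and was not called, with a CPM lower in Müller glia in each of the 4 libraries.

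In Müller glia over the pigment epithelium 4 of the 6 genes were called, where 36.2% of all genes were. Crb1 gave the largest value among the 6 genes and 5 pairs, 5.74 on the log2 scale (SE 0.286, adjusted p = 3.66e-23, edgeR), and ranged from 4.68 to 6.41 over the alternatives. Crb2 was higher in Müller glia by 1.43 (SE 0.324, adjusted p = 0.000297, edgeR), a call lost with thinned class sums (adjusted p = 0.109). Mpp5 was lower in Müller glia at -0.58 (SE 0.133, adjusted p = 0.000333, edgeR), lost with thinned class sums (adjusted p = 0.215). Mpp4 gave -0.86 (SE 0.311, adjusted p = 0.0244, edgeR), and lost its call without any 1 of 3 of the libraries. As a share of the rod level, Mpp4 in Müller glia was above the rod markers in no library. Mpp3 (0.32, adjusted p = 0.483, edgeR) and Pard3 (-0.20, adjusted p = 0.146, edgeR) were not called, and Pard3 was called with RLE scaling (adjusted p = 0.0479) and DESeq2 (0.0155).

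In the pigment epithelium over rods all 6 genes were called, where 48.5% of all genes were. Crb1 was lower in the pigment epithelium at -3.18 (SE 0.317), Crb2 at -2.30 (SE 0.297) and Mpp4 at -3.14 (SE 0.213) on the log2 scale. Mpp3 was higher at 3.00 (SE 0.438), Pard3 at 1.07 (SE 0.110) and Mpp5 at 0.86 (SE 0.134). The highest adjusted p among these 6 was 3.09e-07 (Mpp5, edgeR), and each direction held in 4 of 4 libraries. The pigment epithelium thus held the scaffold genes Mpp5, Pard3 and Mpp3 above rods, and the scaffold gene Mpp4 and both Crumbs genes below them. The Mpp3 value rests on 27 UMIs in the pigment epithelium and 32 in rods.

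In cones over rods 4 of the 6 genes were called, where 37.9% of all genes were. Crb2 was lower in cones at -0.66 (SE 0.158, adjusted p = 0.000617, edgeR) and Pard3 higher at 0.58 (SE 0.100, adjusted p = 4.73e-06, edgeR), each in all 4 libraries and under every alternative. Mpp4 was higher in cones at 0.42 (SE 0.109, adjusted p = 0.00157, edgeR) in 4 of 4 libraries, but was not called with DESeq2 (adjusted p = 0.0841) or without the library block (0.122). It was also lost without the second 2.5-month library (0.0781), without the first 5-month library (0.0738) and with thinned class sums (0.139). Mpp5 gave -0.30 (adjusted p = 0.0155, edgeR) and lost its call in 8 of 14 alternatives. Crb1 (-0.36, adjusted p = 0.106, edgeR) and Mpp3 (-0.60, adjusted p = 0.334, edgeR) were not called, and Crb1 was called without the second 5-month library (adjusted p = 0.0349).

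**Figure D3:**
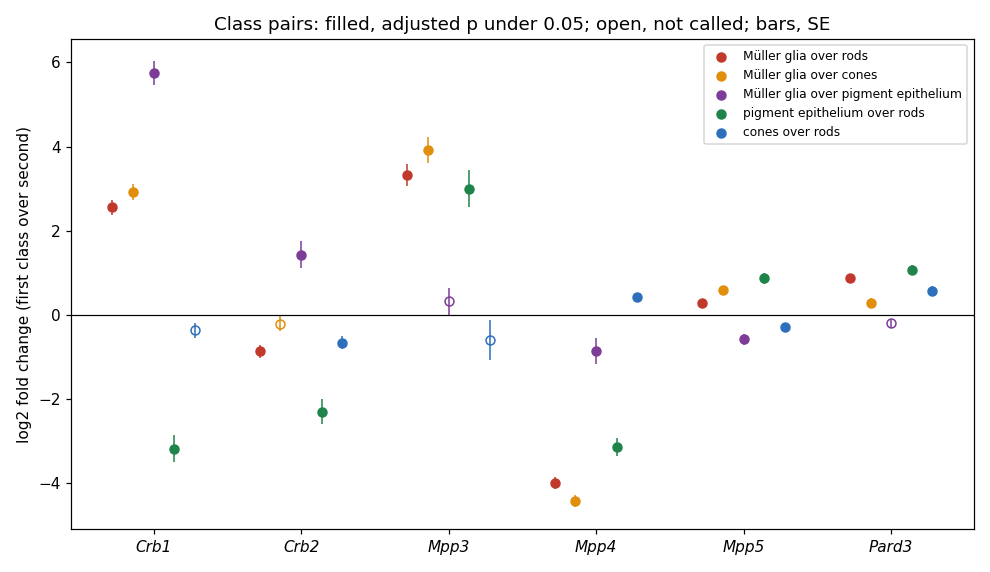
Log2 fold change of each gene in 5 pairs of classes, first class over second, in 4 libraries (filled, adjusted p under 0.05; open, not called). Bars are the SE derived from edgeR's F statistic. Crb1 stands at 2.56, 2.92 and 5.74 for Müller glia over rods, cones and pigment epithelium, and Mpp4 at -4.00 and -4.42 for Müller glia over rods and cones.

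Each class was also set against the mean of the log2 levels of the other 11 classes. All 6 genes were called in Müller glia, where 52.5% of all genes were called, and in amacrine (58.6%), ganglion (63.2%), horizontal (38.4%) and rod nuclei (65.3%). In bipolar nuclei (50.2%), ciliary epithelium (37.4%) and smooth muscle (40.8%) 5 genes were called. In cones (61.5%), melanocytes (31.5%) and pigment epithelium (29.7%) 4 genes were called, and in fibroblasts (48.9%) 2 were. Müller glia held Crb1 (4.50), Crb2 (2.32), Mpp3 (2.06), Mpp5 (0.65) and Pard3 (0.25) above the mean of the other classes on this log2 scale and Mpp4 (-0.78) below it. For Pard3, the ciliary epithelium, smooth muscle, fibroblasts, melanocytes and pigment epithelium had a higher mean CPM than Müller glia (328 CPM). With thinned class sums Mpp4 (adjusted p = 0.507) and Pard3 (0.116) were not called there, and Pard3 was not called without the library block (0.0797). Horizontal nuclei were the class with all 6 genes below the mean of the other classes, from -2.98 (Crb2) to -0.41 (Pard3), with 3 UMIs each for Crb2 and Mpp3. Crb2 (adjusted p = 0.0902) and Pard3 (0.647) were not called there with thinned class sums, nor Mpp3 without the second 5-month library (0.114). Crb1 was called higher in 4 classes and lower in 7, Mpp4 higher in 3 and lower in 8, and Pard3 higher in 6 and lower in 5. The 3 classes with Mpp4 called higher were cones (4.04), rods (3.58) and bipolar nuclei (0.68). The bipolar value is a difference from the mean of log2 levels: the plain mean was 75.5 CPM in bipolar nuclei and 139 CPM in the other classes. For Crb1 in rods the log2 value was 1.71, with 254 CPM in rods and a plain mean of 252 CPM in the other classes.

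The partners of these proteins were examined in 6 lists of 38 genes, all tested in Müller glia over rods. Of them 13 were called higher in Müller glia, 15 lower and 10 were not called, which is close to the shares over all genes (31.7% higher and 33% lower), and their median log2 fold change was 0.08, against -0.09 over all genes. The lists held both directions, except the ezrin list, in which no gene was called lower. Rod markers in Müller nuclei stood at 10.6% to 19.0% of their rod level, and the part of such RNA in these values was not tested.

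The Crumbs partners had 1 gene called higher and 2 lower of 6 (median -0.07). Lin7a, a small scaffold that joins the complex by way of Mpp5, was higher in Müller glia (149.6 CPM, against 24.6 CPM in rods, log2 2.95). Patj, which binds Mpp5, was lower (42.1 CPM in Müller glia, against 149.6 CPM in rods, log2 -1.63). Crb3, the third Crumbs gene, was at 0.639 CPM in Müller glia and 2.99 CPM in rods (log2 -1.53), and its call was not kept in all alternatives (highest adjusted p = 0.219).

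The Par list had 3 genes higher and 3 lower of 7 (median 0.12). Pard3b, the paralog of Pard3, had 1044 CPM in Müller glia and 11.3 CPM in rods, a log2 fold change of 6.75, and Pard6g (2.24) and the kinase gene Prkci (0.70) were also higher. The other atypical kinase gene, Prkcz, had 15.2 CPM in Müller glia and 190 CPM in rods (log2 -3.41), and Pard6b (-1.59) and Pard6a (-0.70) were lower as well. Pard3b and Pard3 were thus both higher in Müller glia, by 6.75 and 0.87. The calls of Prkci and Pard6a were lost in at least 1 alternative (highest adjusted p = 0.559 and 0.131).

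In the lateral Scribble group, which opposes the apical complexes, 1 gene was higher and 2 lower of 4 (median -0.13). Llgl1 gave 0.60, Dlg1 -0.24 and Llgl2 -3.29 (7.42 CPM in Müller glia, against 79.4 CPM in rods). The calls of Llgl1 and Dlg1 were lost in at least 1 alternative (highest adjusted p = 0.0695 and 0.266). Of the 5 genes of the ezrin list, which link membrane proteins to actin, Msn (1.51) and Slc9a3r1 (1.37) were called higher (median 0.25).

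The junction list had 5 genes higher and 5 lower of 11 (median 0.30). Nectin3 (3.63), N-cadherin, encoded by Cdh2 (3.60), Jam3 (3.48) and the nectin linker Afdn (0.86) were higher in Müller glia. Cdh2 had 1658 CPM in Müller glia and 160 CPM in rods. Those lower in Müller glia included Tjp1 (263 CPM, against 858 CPM in rods, log2 -1.5), Jam2 (-1.22) and Ctnnb1 (-0.54, not called in every alternative, highest adjusted p = 0.705). Jam2 and Jam3, a pair of adhesion molecules known to bind each other, differed in direction. Of the other membrane palmitoylated proteins, Mpp2 (1.75) was higher, and Mpp7 (-1.05), Mpp6 (-1.02) and Cask (-0.37) were lower, of 5 tested (median -0.37). The calls of Mpp6 and Cask were lost in at least 1 alternative (highest adjusted p = 0.285 and 0.508).

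**Figure D4:**
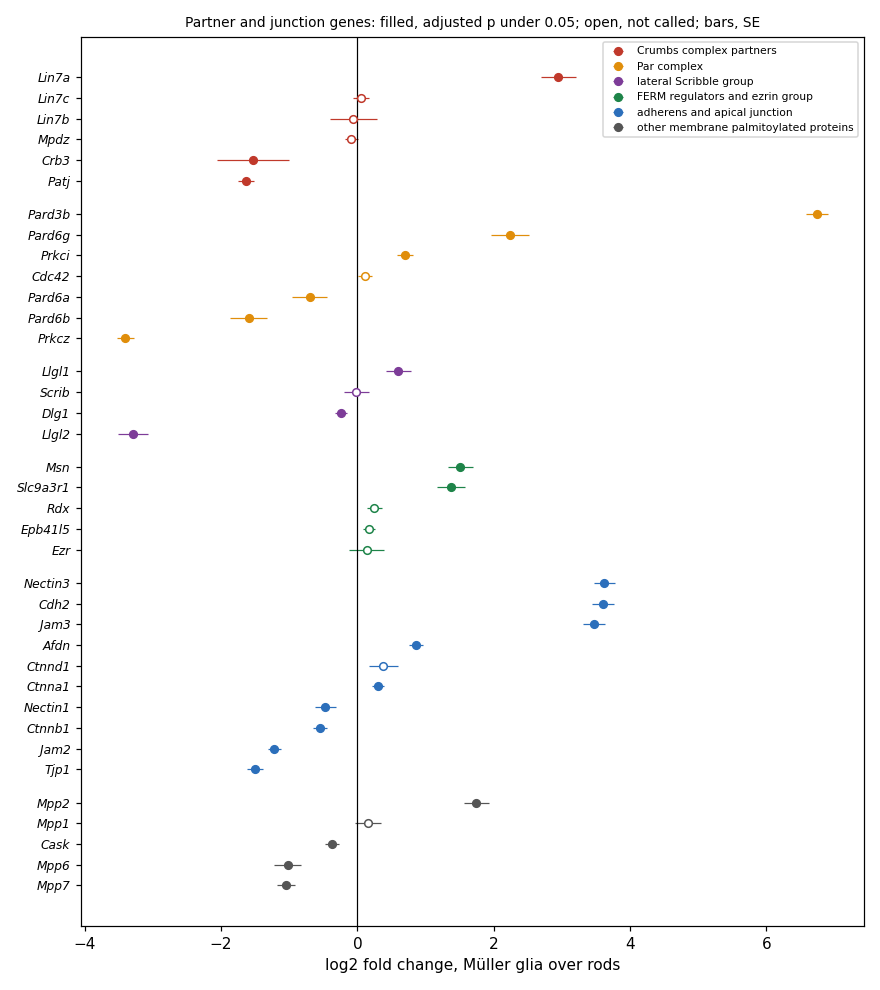
Log2 fold change, Müller glia over rods, of 37 of the 38 partner and junction genes in 6 lists, in 4 libraries (filled, adjusted p under 0.05; open, not called). Bars are the SE derived from edgeR's F statistic. Pard3b, at 6.75, lies farthest to the right and Prkcz, at -3.41, farthest to the left.

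The ages were compared within each class, 5 months over 2.5 months. The file headers record Cell Ranger 4.0.0 for the 5-month libraries and Cell Ranger 7.1.0 for those of 2.5 months. Age and software version therefore cannot be told apart in any value that follows. The labels give a genotype (wild type) at 2.5 months only, so the genotype is not known to be equal at both ages. Doublets were also removed almost only at 5 months, because the caller marked 8.92% and 7.87% of barcodes there and 0.0406% and 0.0135% at 2.5 months. Of 56 tests of the 6 genes over 12 classes, none passed an adjusted p under 0.05 with edgeR, 11 (19.6%) had an unadjusted p under 0.05, and DESeq2 called none. Over all genes 5.68% to 8.45% had an unadjusted p under 0.05, depending on the class, and the tests of 1 gene over classes share their libraries. The lowest adjusted p was 0.482 (edgeR), and 16 combinations of gene and class had too few counts to test. Over all genes the share called was 0.0946% in Müller glia, 0.0159% in pigment epithelium, 0.0517% in cones and 0.0487% in rods. It was 0.0689% in bipolar, 0.0969% in horizontal, 0.0327% in amacrine and 0.0746% in ganglion nuclei. It was 0% in the ciliary epithelium and fibroblasts, 0.292% in smooth muscle and 0.616% in melanocytes. With 2 libraries per age, a value that was not called does not show that the ages were alike.

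Mpp5 had 1 sign in all classes as fitted. Its log2 fold change was below 0 in 12 of 12 classes, from -0.77 in horizontal nuclei to -0.05 in bipolar nuclei, with none called. The bipolar value was above 0 in 4 alternatives, at most 0.063. Both 5-month libraries were below both 2.5-month libraries in 11 of 12 classes, all but the bipolar class. In Müller glia it was at -0.51 (SE 0.200, adjusted p = 0.686, edgeR), in amacrine nuclei at -0.61 (SE 0.177, adjusted p = 0.482, edgeR) and in rods at -0.22 (SE 0.172, adjusted p = 0.815, edgeR). Of 4086 genes tested in every class, 6.66% were below 0 in every class, and 1.64% had both 5-month libraries below both 2.5-month libraries in 11 or more classes. The classes of 1 library come from 1 animal and are not independent.

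Pard3 was below 0 in 11 of 12 classes, but closer to it, from -0.35 to 0.05, and 5 of the 11 were above 0 in at least 1 alternative. Crb1 in Müller glia was at -0.00 (SE 0.195, adjusted p = 0.996, edgeR) and in rods at 0.17 (SE 0.143, adjusted p = 0.831, edgeR), and its lowest value was -0.92 in ganglion nuclei (adjusted p = 0.501, edgeR), which was 0.51 with called doublets kept. Crb2 was at 0.27 in Müller glia and 0.26 in rods. Mpp3 was at 0.65 in Müller glia and was not tested in rods. Mpp4 was at -0.40 in Müller glia and 0.37 in rods. The difference of these 2 Mpp4 values was -0.75 (SE 0.249, adjusted p = 0.289, edgeR) in a test of the interaction of class and age, in which none of the 6 genes and 0.182% of 13772 genes were called. Without the first 5-month library, which leaves 1 library at that age, the Mpp4 difference was -1.08. The part of free rod RNA in the Mpp4 level of Müller glia was not tested, as said above. Of 385 tests of partner genes, none was called by edgeR and 24 had an unadjusted p under 0.05, a share within the 5.68% to 8.45% over all genes.

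**Figure D5:**
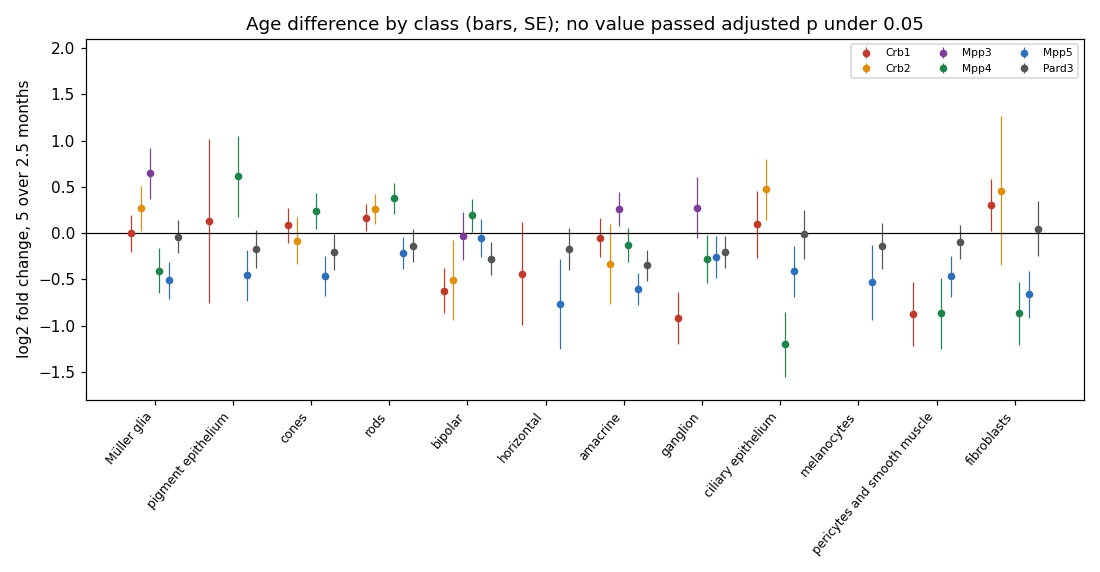
Log2 fold change of each gene, 5 months over 2.5 months, in the 12 classes, with 2 libraries per age and SE derived from edgeR's F statistic. No value passed an adjusted p under 0.05, and the Mpp5 points (blue) all lie below 0, from -0.77 to -0.05.

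Genes with a pattern most like each of the 6 were found by Pearson's r of log2(CPM + 1) over 48 points (12 classes in 4 libraries) among 10964 genes. The points share libraries, depth and free RNA, and the values are a description. Crb1 was most like Rax (r = 0.84), a homeobox gene of the eye field, then Acsl3 (0.83) and Ston2 (0.82). Crb2 was most like Adgrv1 (0.87), Rax (0.87) and Frmd4b (0.87), so that Rax stood in both Crumbs lists. Mpp4 was most like Rpgrip1 (0.97), Fam161a (0.96) and Fabp12 (0.95), and Rpgrip1 and Fam161a encode proteins of the photoreceptor cilium. Mpp3 was most like Dab1 (0.82), Kirrel3 (0.82) and Gucy1a1 (0.80). Mpp5 was most like Ctnna1 (0.89), the alpha-catenin of adherens junctions, Dlg1 (0.89) and Rreb1 (0.86), and Pard3 was most like Frrs1 (0.91), Mdfic (0.88) and Pign (0.88). Between the 6 genes, r was highest for Mpp5 with Pard3 (0.77), Crb1 with Crb2 (0.73) and Crb2 with Mpp4 (0.69), and lowest for Mpp3 with Mpp4 (-0.21).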

How the data were processed

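Raw UMI counts per gene and barcode were deposited by the authors for 31053 genes in each of 4 mouse retina libraries. Per the submitters' processing notes, Cell Ranger and mm10 were used, and version 4.0.0 (5 months) and version 7.1.0 (2.5 months) stand in the headers of the matrices. Whether introns were counted, and on which strand, is not given in the sources used here. Library totals were 19608067 to 36320257 UMIs, and class sums 138040 to 8383616 UMIs.

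Barcodes under 300 genes or over 5% mitochondrial UMIs were removed (27 of 32326). Scrublet (in scanpy 1.11.5, expected rate 0.06) called doublets per library, marking 672 and 784 nuclei at 5 months, which were removed. At 2.5 months it marked 3 and 1, under 0.5% of barcodes, and is taken to have failed, so these libraries still hold doublets. Counts scaled to 10000 per nucleus, 2000 variable genes, 30 principal components and 15 neighbours gave 46 Leiden clusters at resolution 1 (leidenalg 0.10.2). A name needed at least 3 markers with a log2 fold change above 1. This naming rule and the split of the ciliary class were settled after the data were seen, and 1042 nuclei stayed unnamed. The 6 genes and the lists were chosen with earlier results of these data known.

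UMIs were summed per class and library and tested with edgeR 4.0.16 (R 4.3.3; TMM, filterByExpr, quasi-likelihood test, 2-sided, Benjamini-Hochberg over all genes), with the library as a block between classes and age alone within a class. The test was checked on counts simulated without a library effect, with known fold changes in Müller glia. For age it recovered 10% of 2-fold changes and 98% of 4-fold changes. For Müller glia over rods it recovered 71% of 2-fold changes and 100% of 4-fold changes. Only genes above a minimum mean count in Müller glia were changed, with the same spread set for all genes. These shares do not cover genes or classes with fewer counts. DESeq2 1.42.0, other scaling, filters, clustering, doublet handling, thinning and each library left out were tried. Named were the 6 genes, up to 4 called partners per list and direction in Müller glia over rods, and the 3 genes most like each of the 6 with a mean of at least 10 CPM. Donor numbers are shared between ages but mark different animals. Gene positions are from GENCODE M21. One partner gene enters the counts and medians of its list and is not reported here by name.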

Additional observations from a re-analysis of the deposited data

Results flagged for a closer look

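Among 72 groups of 4 libraries, of which chance flags about 1 in 20, 3 values lay far from the other 3 libraries of their class. Mpp3 in pericytes and smooth muscle was 4.34 CPM in the second 5-month library, against 1.68 CPM in the first 5-month library and 1.76 and 2.1 CPM at 2.5 months. Mpp4 in amacrine nuclei was 25.0 CPM in the first 5-month library, with 29.5 CPM in the second and 29.6 and 29.4 CPM at 2.5 months. Mpp5 in melanocytes was 46.2 CPM in the second 5-month library, with 94.2 CPM in the first and 98.8 and 95.9 CPM at 2.5 months. Outside the tested classes, Mpp5 had a pooled level of 250.4 CPM in cluster 38, named striated muscle (177 nuclei, 107 UMIs). Its mean over libraries was 221 ± 86.6 CPM (SD, n = 4). The highest class mean among the 12 tested was 155 CPM, in the pigment epithelium. The first 2.5-month library held 143 of these nuclei and 80 of the UMIs (248 CPM). The second 2.5-month library had 124 CPM from 2 UMIs, and the 5-month libraries had 326 and 186 CPM from 20 and 5 UMIs.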

How the results depend on the processing

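Of 1385 comparisons of a result with an alternative, 1322 kept direction and side of the threshold. Thinning class sums to 138040 UMIs, which leaves fewer counts to test, lowered the calls among the 6 genes against the other classes to 3 in Müller glia, 2 in amacrine nuclei, and 3 each in bipolar nuclei, horizontal nuclei and smooth muscle. It left 3 calls for Müller glia over rods, 3 over cones, 1 over pigment epithelium and 2 for cones over rods, and 8 partners higher and 7 lower. Cones over rods also had 2 calls, in place of 4, with DESeq2 and with no replicate block, and 2 to 5 with 1 library left out. Melanocytes had 1 to 4 calls with 1 library left out, and the interaction 0 to 1. Donor number as a replicate block called 0 of the 6 genes between ages. Same-numbered libraries deviated with correlations of -0.08 to 0.05 over the classes, so the numbers were taken as shared names only. Thinning nuclei to 1000 UMIs gave shares of 68.2% for Crb1 in Müller glia, 3.28% for Mpp3 in amacrine nuclei, 47.9% for Mpp4 in cones, 13% for Mpp5 in pigment epithelium and 43.8% for Pard3 in ciliary epithelium. Of the 6 genes' values, 25 of 56 between ages, 4 of 6 interactions, 10 of 72 against the other classes and 2 of 30 between pairs changed sign in at least 1 alternative, and none was called as reported or in that alternative. Among them, at 5 months over 2.5 months in Müller glia, Crb1 was 0.036 with 1 doublet threshold and 0.029 without the low-count filter, and Mpp4 was 0.061 with doublets kept. With 1 library left out, Crb1 ran from -0.18 to 0.15 and Pard3 from -0.19 to 0.155 in Müller glia, and Pard3 from -0.32 to 0.040 in rods. Crb2 in Müller glia over cones was 0.19 with thinned sums. Mpp3 in Müller glia over pigment epithelium ran from -0.052 to 0.69 with 1 library left out. The cause of these changes was not tested. Intervals and shares cover counting error and the spread of 4 libraries only.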
